A study of Mus musculus with 6 samples.

Results

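Transcripts of 10 endothelial genes were followed in mouse testes of stage E12.5 (E, embryonic day) with and without Cre-driven deletion of Ppp1r3c in somatic cells: the SoxF transcription factors Sox7, Sox17 and Sox18, the receptors Kdr, Flt1, Tek and Tie1, and the junction and surface genes Pecam1, Cdh5 and Emcn. They were chosen by symbol, as marks of the vessels that pattern testis cords, with earlier results of these data known. All 10 were found among the 24470 genes of the count table. RNA-seq was performed on 6 samples, 3 per group, each a pool of 2 gonad pairs. Control embryos were Ppp1r3c f/f and conditional knockout (cKO) embryos were Sf1-Cre; Ppp1r3c f/f, so both groups carried the floxed alleles and only the cKO embryos carried Cre. The presence of Cre and the loss of Ppp1r3c cannot be told apart in this design. The Cre transgene is driven by sequences of Nr5a1 (Sf1), a gene of the somatic cells of the gonad, and the product of Ppp1r3c directs protein phosphatase 1 to glycogen and favours its synthesis. In the same libraries the Sertoli cell hormone gene Amh, chosen after its values were seen, was present at 588 to 920.1 CPM (counts scaled to the library total). The 10 endothelial genes together made up 683 to 801 CPM of each library. These levels describe the libraries and do not test the label testis. As given below, cKO replicate 3 also held Xist and ovarian supporting cell transcripts.

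Endothelial cells of the XY gonad come largely from the adjoining mesonephros. They migrate into the gonad, assemble an artery beneath its surface and send branches between the forming testis cords, so that vessels and cords take shape together. Growth of such vessels is driven by VEGF ligands acting on KDR, while FLT1 binds the same ligands and limits their action. Angiopoietins act on TEK (TIE2), with TIE1 as its partner. SoxF factors switch on endothelial and arterial genes, VE-cadherin (Cdh5) and PECAM1 hold neighbouring endothelial cells together, and endomucin (Emcn) is a sialomucin of their surface.

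The upstream sequences of members are shown as a description, and whether they bear on the members' levels was not tested. The 250 bases before the annotated start were at hand in RefSeq (GRCm38.p6) for 5 of the 10 members, Kdr, Flt1, Tek, Tie1 and Emcn. They were searched on both strands for AGGAA, a core of ETS sites, and for ACAAT, a core of SOX sites. Capitals mark the matches, so TTCCT and ATTGT are matches on the opposite strand. Each line runs 5′ to 3′ on the strand of the gene.
Tek: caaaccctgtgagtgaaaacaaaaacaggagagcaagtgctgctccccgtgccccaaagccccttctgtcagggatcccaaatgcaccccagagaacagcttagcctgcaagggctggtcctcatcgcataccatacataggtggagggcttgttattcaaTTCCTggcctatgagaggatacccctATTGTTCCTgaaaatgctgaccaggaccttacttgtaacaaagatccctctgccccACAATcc
Emcn: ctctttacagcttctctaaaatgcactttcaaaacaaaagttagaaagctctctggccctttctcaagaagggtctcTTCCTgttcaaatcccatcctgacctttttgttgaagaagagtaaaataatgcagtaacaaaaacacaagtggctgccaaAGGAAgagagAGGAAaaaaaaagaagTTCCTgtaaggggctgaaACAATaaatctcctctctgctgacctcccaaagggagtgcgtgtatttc
Flt1: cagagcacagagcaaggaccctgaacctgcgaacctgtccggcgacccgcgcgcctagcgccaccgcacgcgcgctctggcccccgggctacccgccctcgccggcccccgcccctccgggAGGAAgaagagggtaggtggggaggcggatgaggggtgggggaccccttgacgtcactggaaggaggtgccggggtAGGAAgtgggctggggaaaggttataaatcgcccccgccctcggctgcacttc
Kdr: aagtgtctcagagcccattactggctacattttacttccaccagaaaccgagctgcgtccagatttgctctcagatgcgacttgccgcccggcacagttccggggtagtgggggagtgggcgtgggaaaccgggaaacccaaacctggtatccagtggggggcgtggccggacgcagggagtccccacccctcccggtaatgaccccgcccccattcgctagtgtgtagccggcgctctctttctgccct
These windows were chr4:94739039-94739288 on the plus strand for Tek, chr3:137340828-137341077 on the plus strand for Emcn, chr5:147726012-147726261 on the minus strand for Flt1 and chr5:75978456-75978705 on the minus strand for Kdr. The windows of Flt1 and Kdr do not reach the bounds given below for the counted genes, whereas those of Tek and Emcn do. The window of Emcn held 4 ETS and 1 SOX match, and that of Tek held 2 of each, with 1 ETS and 1 SOX match sharing a base. Flt1 held 2 ETS matches, as did Tie1, which is not printed since most of its window lies in an untranslated region of another transcript. Kdr held neither. An ETS match was present in 4 of the 5 windows and in 60.3% of 32851 promoters of the same length, and a SOX match in 2 of the 5 and in 27.7% of all. A match of 5 letters is a description of the sequence and not a site.

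Before the endothelial genes, the libraries were compared. Totals ran from 16139487 counts in control replicate 1 to 44145158 in control replicate 2. The targeted gene Ppp1r3c was at 24.4, 22.1 and 22.9 CPM in control and at 4.71, 5.37 and 5.96 CPM in cKO replicates 1 to 3 (log2 fold change -2.11, SE 0.111, edgeR FDR 0.000126). One cKO library stood apart. In cKO replicate 3, Xist, the RNA that silences an X chromosome in XX cells, was at 379 CPM, against 0.369 to 1.0 CPM in the other 5 libraries. The ovarian supporting cell genes Foxl2 and Fst were at 7.56 and 50.9 CPM there, against at most 1.22 and 2.02 CPM elsewhere. Results are therefore also given without this library.

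Scaled to the combined length of the annotated exons of each gene, the members spanned a wide range. In control testes Cdh5 was the most abundant at 154 ± 18.5 TPM (counts scaled to exon length and library total, SD, n = 3), followed by Pecam1 at 87.2 ± 4.54, Kdr at 75.4 ± 2.03, Tie1 at 52.2 ± 6.32, Emcn at 47.8 ± 2.30, Sox18 at 41.5 ± 3.12, Sox7 at 29.4 ± 3.83, Tek at 20.3 ± 1.95, Sox17 at 11.2 ± 0.897 and Flt1 at 9.16 ± 0.958 TPM. The TPM of Cdh5 was thus 16.9-fold that of Flt1. The length pools the exons of all isoforms, 10.96 kb for Flt1 and 3.995 kb for Cdh5, and the order depends on it. In control mean CPM, Flt1 (33.9) lay above Sox7 (32.7), Tek (32.3), Sox18 (22.7) and Sox17 (15.5). In the order by TPM every control value of a gene lay above every control value of the next, except that Tie1 overlapped Emcn. In cKO testes more neighbours overlapped: Pecam1 (77.7 ± 2.85 TPM) with Kdr (81.7 ± 6.63 TPM), Tie1 with Emcn, Emcn with Sox18 (47.1 ± 7.03 TPM), and Sox17 with Flt1. The counts behind these levels ran from 275 for Sox17 in the shallowest library to 8797 for Cdh5 in control replicate 3.

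**Figure D1:**
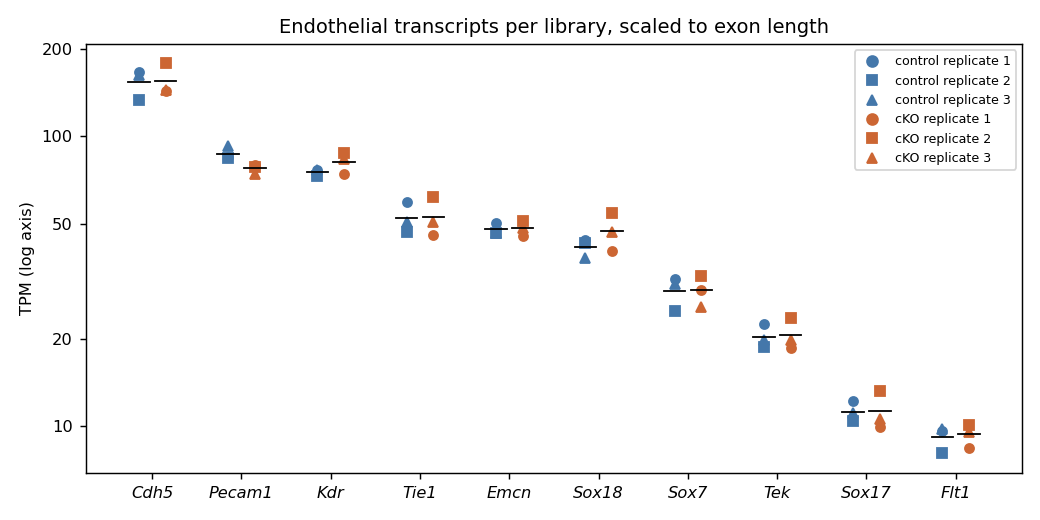
Level of each endothelial gene in TPM (log axis) in the 3 control (blue) and 3 cKO (orange) libraries, with the replicate given by the symbol and the group mean by a bar. Cdh5 stands highest and Flt1 lowest, and Pecam1 is the member whose cKO points all lie below its control points.

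To ask whether transcripts of the vasculature differed in cKO testes, counts were compared with edgeR over all 15577 genes that passed the filter on low counts. None of the 10 members, all of which were tested, differed at an FDR below 0.05 with edgeR or with DESeq2. Over all genes edgeR called 0.0385% and DESeq2 0.779%. An unadjusted edgeR p below 0.05 was obtained for 1 member, Pecam1, which is 1 of 10 against 11.4% of all genes tested (5.8% lower and 5.56% higher in cKO). Fold changes were above 0 for 4 members and below 0 for 6, with a median log2 fold change of -0.0055 beside -0.0034 for all genes tested. Without cKO replicate 3 they were above 0 for 7 and below 0 for 3, with a median of 0.025, and none was called. In bulk libraries, fewer endothelial cells and less RNA per cell cannot be told apart, and the p-values measure the spread between pools of gonads.

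**Figure D2:**
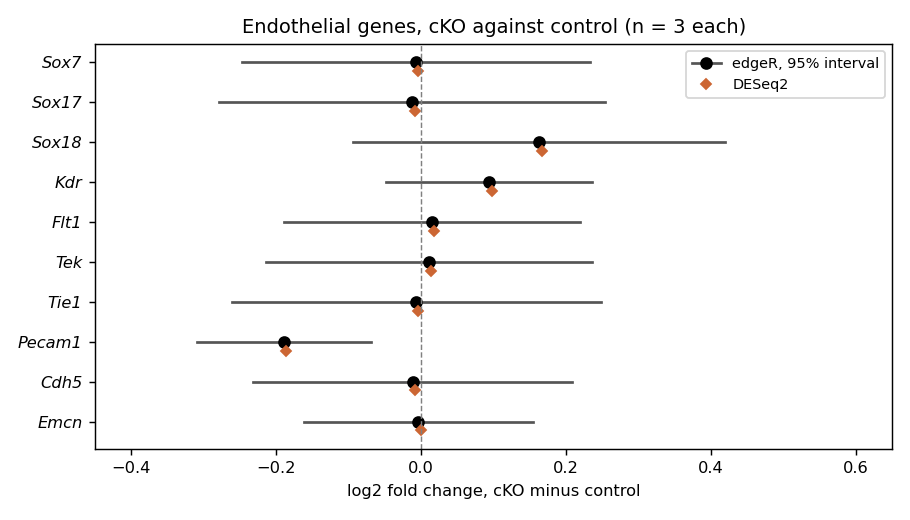
Log2 fold change of each endothelial gene, cKO minus control (3 libraries each), with the edgeR estimate and its 95% interval as a black point and line and the DESeq2 estimate as a diamond. The interval of Pecam1 (-0.31 to -0.07) lies below 0, and the other 9 intervals include 0.

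The SoxF factors act redundantly upstream of arterial and lymphatic programmes. Sox7 (chr14:63943706-63950732, mm10, plus strand) was at 35.9, 28.3 and 33.8 CPM in control and 32.5, 35.8 and 28.8 CPM in cKO replicates 1 to 3. The groups overlapped, with means of 32.7 ± 3.92 and 32.4 ± 3.51 CPM (SD, n = 3). In the edgeR fit the difference was -0.0073 on the log2 scale (SE 0.107, FDR 0.987), and its 95% interval covered a change of the level between -15.7% and 17.5%.

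Sox17 (chr1:4490928-4497354, minus strand), a factor of arterial endothelium, was the least counted member at 16.9, 14.7 and 15.03 CPM in control and 13.6, 17.8 and 14.6 CPM in cKO libraries. Both the highest and the lowest of these values belonged to cKO testes. Its difference was -0.012 on the log2 scale (SE 0.118, edgeR FDR 0.979), with an interval from -17.5% to 19.2%. Sox18 (chr2:181669837-181671640, minus strand), which also acts in the lymphatic lineage, was at 24.0, 23.8 and 20.3 CPM in control and 21.6, 28.8 and 25.6 CPM in cKO libraries. Replicates 2 and 3 of cKO exceeded every control library and cKO replicate 1 did not. The estimate of 0.16 (SE 0.114, edgeR FDR 0.603; DESeq2 FDR 0.699) had the widest upper bound among the members, 33.7% above control.

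Among the receptors, Kdr (VEGFR2; chr5:75933265-75978428, minus strand) transmits most of the response of endothelial cells to VEGF. It was at 154, 149 and 149.8 CPM in control and 147, 169.7 and 167 CPM in cKO libraries. The control libraries lay close together, with a coefficient of variation of 1.89%, and the cKO libraries spread around them with 7.78%. The means were 151 ± 2.85 and 161 ± 12.52 CPM (SD, n = 3), and edgeR gave a log2 fold change of 0.09 (SE 0.0633, FDR 0.592), with an interval from -3.33% to 17.8%.

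Flt1 (VEGFR1; chr5:147562196-147725988, minus strand), which also gives rise to a soluble decoy form, was at 35.8, 30.3 and 35.5 CPM in control and 30.7, 36.4 and 35.3 CPM in cKO libraries. In each group 1 library was low and 2 were high, and edgeR gave a difference of 0.01 on the log2 scale (SE 0.0909, FDR 0.968; interval -12.3% to 16.4%). The counts cover the gene as a whole and do not separate its soluble form from its membrane form.

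The angiopoietin receptor gene Tek (chr4:94739289-94874976, plus strand) was at 35.8, 30.2 and 30.8 CPM in control and 29.1, 36.5 and 31.5 CPM in cKO libraries. Its partner Tie1 (chr4:118471191-118489849, minus strand) was at 91.2, 73.2 and 76.4 CPM in control and 69.4, 92.0 and 77.5 CPM in cKO libraries. For both, cKO replicate 2 was the highest library and control replicate 1 came next, while cKO replicate 1 was the lowest. The log2 fold changes were 0.01 for Tek (SE 0.1, edgeR FDR 0.978; interval -13.8% to 17.8%) and -0.0069 for Tie1 (SE 0.113, edgeR FDR 0.988; interval -16.6% to 18.7%).

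Of the junction and surface genes, Cdh5 (chr8:104101625-104144502, plus strand), the endothelial cadherin of adherens junctions, was at 227, 183 and 215 CPM in control and 190.0, 234 and 194 CPM in cKO libraries. The means of 208 ± 22.6 and 206 ± 24.2 CPM (SD, n = 3) differed by far less than either SD, with an edgeR estimate of -0.01 on the log2 scale (SE 0.0978, FDR 0.977; interval -14.8% to 15.5%). Cdh5 overlaps the gene Gm29682 on the opposite strand, and counting was strand-specific. None of the other 9 members overlaps another gene of the table. Emcn (chr3:137341078-137431069, plus strand), a marker of venous and capillary endothelium, was at 44.2, 41.3 and 39.7 CPM in control and 39.1, 43.5 and 42.1 CPM in cKO libraries. It varied least of all members, the highest library being 1.13-fold the lowest, and its edgeR estimate was -0.0042 on the log2 scale (SE 0.0703, FDR 0.988; interval -10.6% to 11.2%).

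Pecam1 (chr11:106654213-106715281, minus strand) was the member whose groups did not overlap. It was at 119, 120.0 and 126 CPM in control and 109.8, 107 and 104 CPM in cKO libraries, so that each cKO library lay below each control library. Such separation, in the direction lower in cKO, was seen in 7.17% of all genes tested. The means were 122 ± 4.20 and 107 ± 3.01 CPM (SD, n = 3), or 87.7% of control, with a log2 fold change of -0.19 (SE 0.0533). The interval ran from -19.3% to -4.72%. The unadjusted edgeR p was 0.00577 and the FDR over all genes was 0.377 (DESeq2 FDR 0.166), while an exact two-sided permutation test gave p = 0.1, which is the lower limit for groups of 3. Without cKO replicate 3 and under every other alternative Pecam1 kept an unadjusted p below 0.05 and an FDR of at least 0.166.

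PECAM1 is found on fetal germ cells as well as on endothelium, and the germ cell markers were therefore set beside it. The summed level of 15 germ cell markers was 592, 909 and 977 CPM in control and 633, 295 and 469 CPM in cKO libraries. Of the 14 that were tested, all had fold changes below 0 and 12 an unadjusted p below 0.05, with a median log2 fold change of -0.79 (-1.06 to -0.53 when single samples were left out). Such a p with a lower level in cKO was obtained for 5.8% of all genes tested. The count of 12 fell to 6 without control replicate 3 and to 8 without control replicate 2, and was 11 to 13 without any other sample. None of the germ cell markers was called by edgeR, and DESeq2 called Dnd1 (FDR 0.0429) and Mael (FDR 0.0135), both genes of germ cell RNA regulation. The lowest edgeR p in the list belonged to Dppa3, a gene of primordial germ cells (log2 fold change -1.24, FDR 0.377). The part of germ cells in the difference of Pecam1 was not tested.

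Over the same libraries, the other 9 members together were at 665, 573 and 616 CPM in control and 573, 694 and 616 CPM in cKO. The log2 level of Pecam1 exceeded the mean log2 level of these 9 genes by 1.20, 1.42 and 1.43 in control and by 1.31, 0.98 and 1.12 in cKO libraries. These groups overlapped in 1 library each, and the means of 1.35 ± 0.13 and 1.14 ± 0.166 (SD, n = 3) gave an exact two-sided permutation p of 0.2.

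**Figure D3:**
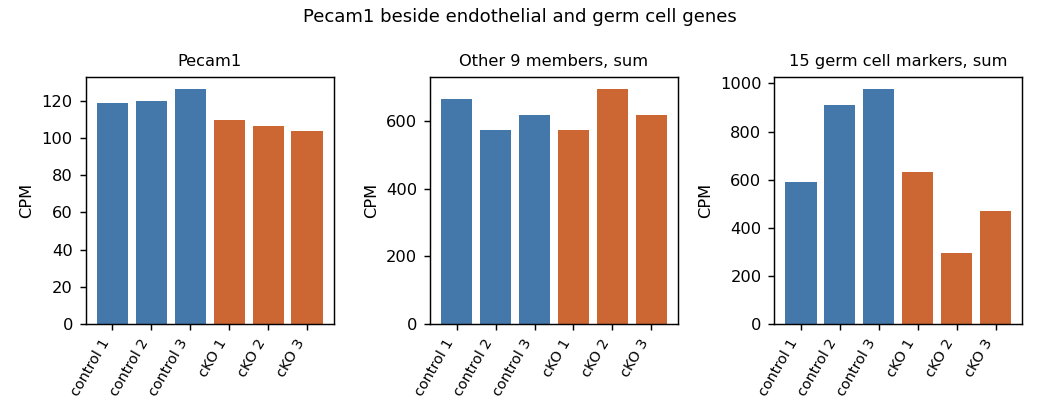
CPM of Pecam1 (left), the sum of the other 9 endothelial genes (middle) and the sum of 15 germ cell markers (right) in each library, control in blue and cKO in orange. Pecam1 is lower in each cKO library, the other 9 endothelial genes are highest in cKO replicate 2 (694 CPM), and germ cell markers are lowest there (295 CPM).

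Apart from Pecam1, the members overlapped between groups, and many of them were high or low in the same libraries. The highest level was reached in cKO replicate 2 for 7 of the 10 genes, and the lowest in cKO replicate 1 for 5. Averaged over the 10 genes, the log2 difference from the control mean was 0.10, -0.08 and -0.02 in control and -0.11, 0.14 and -0.03 in cKO replicates 1 to 3. Across the 6 libraries, the Pearson correlation of a member with the mean of the other members was 0.986 for Tie1, 0.98 for Tek, 0.974 for Sox17 and 0.905 for Cdh5. It was lower for Emcn (0.818), Flt1 (0.778), Sox7 (0.621), Kdr (0.606) and Sox18 (0.512), and it was -0.229 for Pecam1. The 65 vessel genes outside the members that could be compared had a median of 0.527, and all other genes a median of -0.0534. These correlations describe 6 libraries that share 1 normalization.

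**Figure D4:**
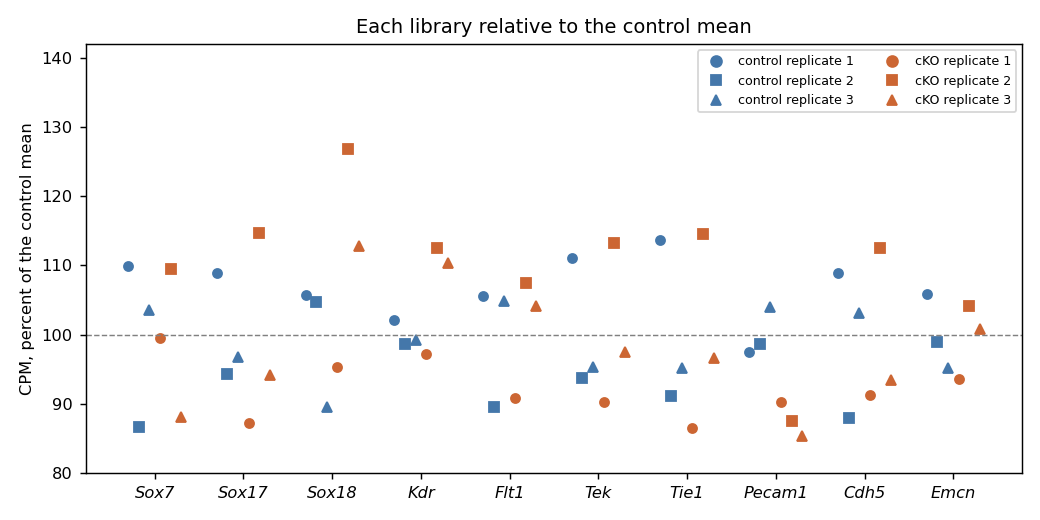
CPM of each endothelial gene in each library as a percentage of the mean of the 3 control libraries (dashed line at 100). Squares in orange (cKO replicate 2) lie above most others and circles in orange (cKO replicate 1) below, except for Pecam1, whose 3 cKO points lie together below its control points.

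Among 13783 other genes with a mean of at least 1 CPM, those most like the mean of the members were Capn10 (r = 0.988), Rcn3 (0.984), Ptp4a3 (0.979), Tmcc2 (0.978) and Tmem115 (0.975), over the 6 libraries. Capn10, at 23.6, 19.99 and 20.5 CPM in control and 19.6, 24.4 and 21.0 CPM in cKO, shows the pattern: control replicate 1 and cKO replicate 2 were high and cKO replicate 1 was low.

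Genes of the same pathways outside the members were then examined. Of 16 ligands, 14 were tested, 7 with fold changes above 0 and 7 below, and none was called. The principal angiogenic ligand Vegfa was at 186, 179.8 and 158 CPM in control and 197, 188 and 197 CPM in cKO libraries. The groups were separate by a narrow margin, with an edgeR estimate of 0.15 on the log2 scale (SE 0.0655, p 0.0457, FDR 0.434). The unadjusted p was above 0.05 when control replicate 2 or 3, or cKO replicate 1 or 3, was left out. Vegfb, a ligand of FLT1, had the lowest p of the ligands and was at 34.1, 32.3 and 33.0 CPM in control and 36.1, 37.7 and 39.6 CPM in cKO libraries (log2 fold change 0.19, SE 0.0645, edgeR p 0.0151, FDR 0.377). Leaving out control replicate 2 raised its unadjusted edgeR p to 0.0578, and leaving out cKO replicate 3 raised it to 0.0759. Both were above control in each cKO library, as were 8.42% of all genes tested. The other named ligands overlapped between groups. Angpt1, the activating ligand of TEK, was at 8.99, 8.01 and 9.25 against 7.95, 8.70 and 6.78 CPM (log2 fold change -0.16, edgeR FDR 0.667). Angpt2, its context-dependent antagonist, stayed under 1 CPM in every library (0.44, edgeR FDR 0.729). The lymphatic ligand Vegfc was at 4.12 to 4.93 CPM (0.04, edgeR FDR 0.938), and the FLT1 ligand Pgf at 3.21 to 6.03 CPM (-0.22, edgeR FDR 0.727).

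All 16 receptors and coreceptors outside the members had fold changes above 0, with a median log2 fold change of 0.073 and none at an unadjusted p below 0.05. Nrp1, a coreceptor of KDR, had the lowest p and was at 94.6, 82.0 and 93.5 CPM in control and 93.0, 104 and 102 CPM in cKO libraries (log2 fold change 0.15, edgeR FDR 0.475). This shared sign rested on single libraries: without control replicate 2, or without cKO replicate 2, 10 of the 16 were above 0.

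Of 22 other junction and surface genes, 20 were tested, 10 above and 10 below 0. Mcam, a surface adhesion molecule of endothelial and mural cells, had the lowest p and, like Pecam1, lay below control in each cKO library. It was at 94.6, 88.7 and 94.8 CPM in control and 82.2, 81.6 and 73.9 CPM in cKO libraries (log2 fold change -0.22, SE 0.0639, edgeR p 0.00614, FDR 0.377). Podxl, a sialomucin of endothelium that other epithelia also make and that was chosen after its values were seen, was at 342, 362 and 313 against 378, 369.6 and 713 CPM. Its log2 fold change of 0.52 (edgeR p 0.0397, FDR 0.418) became 0.14 (p 0.087) without cKO replicate 3.

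Of 22 endothelial transcription factors outside the SoxF group, 18 had fold changes above 0, and 3 of these an unadjusted p below 0.05. Mef2c, a MADS-box factor of endothelium and muscle, was at 74.7, 76.3 and 79.8 CPM in control and 87.9, 93.9 and 83.5 CPM in cKO libraries (log2 fold change 0.20, SE 0.0635, edgeR p 0.0113, FDR 0.377). With control replicate 2 left out its unadjusted edgeR p was 0.0533, and with cKO replicate 2 left out it was 0.0512. The others, Foxc1 (0.27, p 0.0139) and Tcf4 (0.15, p 0.0311), which were chosen after their values were seen, are also made by other somatic cells. Without cKO replicate 3 the estimate for Tcf4 was 0.10 (edgeR p 0.146) and that for Foxc1 was 0.32 (edgeR p 0.012). Leaving out control replicate 2 gave an edgeR p of 0.126 for Tcf4 and 0.0743 for Foxc1. The edgeR p was also above 0.05 for Tcf4 without control replicate 1 (0.0589) and for Foxc1 without cKO replicate 1 (0.0587). None of the 22 was called.

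The lists by vessel type share many genes with the lists above and are not separate evidence. They also include the members Sox17 (arterial) and Emcn (venous and lymphatic). The 13 arterial genes had a median log2 fold change of -0.049, with 5 above 0 and 8 below, and Nrp1 again the lowest p. Without cKO replicate 3 their median was -0.010. The 10 venous and lymphatic genes had a median of 0.074, with 8 above and 2 below, or 0.018 with 5 and 5 without cKO replicate 2. Lyve1, a hyaluronan receptor of lymphatic endothelium and macrophages, had the lowest p there at under 1 CPM in every library (0.79, SE 0.375, edgeR FDR 0.454). Over all 67 vessel genes tested outside the members, 47 had fold changes above 0 and 20 below, the median was 0.054, 5 had an unadjusted p below 0.05 and none was called by edgeR or DESeq2. Without cKO replicate 2, the counts above and below 0 were 32 and 35, with a median of -0.0072.

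Markers of other cells that share the vessels' space were measured alongside. In 11 mural cell (pericyte and smooth muscle) markers, 5 were above and 6 below 0, with a median of -0.014 and Mcam the lowest p. The 12 erythroid markers, which report blood within the vessels, summed to 3448, 2784 and 2796 CPM in control and 2443, 3131 and 3149 CPM in cKO libraries. Their median was 0.015, with 6 above and 6 below, and Hbb-bh1, an embryonic globin, had the lowest p (0.42, edgeR FDR 0.443). In these libraries the erythroid sum was lowest in cKO replicate 1, where the members' summed level (683 CPM) was also lowest. Of 10 macrophage markers 9 were below 0 (median -0.10), while the lowest p belonged to Mrc1, which was above control in each cKO library (0.29, edgeR FDR 0.38). Without control replicate 2, or in libraries thinned to the smallest total, 6 of these 10 were below 0. The 6 megakaryocyte and platelet markers, cells that also carry PECAM1, had a median of -0.14 with 2 above and 4 below (lowest p Gp9, edgeR FDR 0.729). Leaving out cKO replicate 1 gave them a median of -0.033, and leaving out cKO replicate 3 one of -0.020. Without cKO replicate 3 the mural and erythroid medians changed sign, to 0.028 and -0.060.

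Among the gonadal cell types, 9 Sertoli markers had a median of -0.086 (lowest p Sox9, 0.28, edgeR FDR 0.377) and 11 interstitial and fetal Leydig markers a median of -0.18 (lowest p Gli1, edgeR FDR 0.474). Without cKO replicate 3 these medians were 0.025 and -0.038. Of 8 mesonephros markers 5 were tested, 3 above 0 and 2 below, with a median of 0.51 and a range from -0.78 to 0.78. DESeq2 tested all 8 and gave a median of 0.17, with 5 above 0 and 3 below. Pax8, a gene of the mesonephric tubules, had the lowest p and was at 10.1, 8.35 and 8.83 CPM in control and 10.8, 11.7 and 16.4 CPM in cKO libraries (0.52, edgeR FDR 0.377). Without cKO replicate 3 the estimate for Pax8 and the median of the list were both 0.32, and without control replicate 2 the median was 0.31. All 6 pre-granulosa markers were above 0 with a median of 1.02, and without cKO replicate 3 the median was 0.30 with 4 above. None of these lists held a gene called by edgeR, and their part in the levels of the members was not tested.

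**Figure D5:**
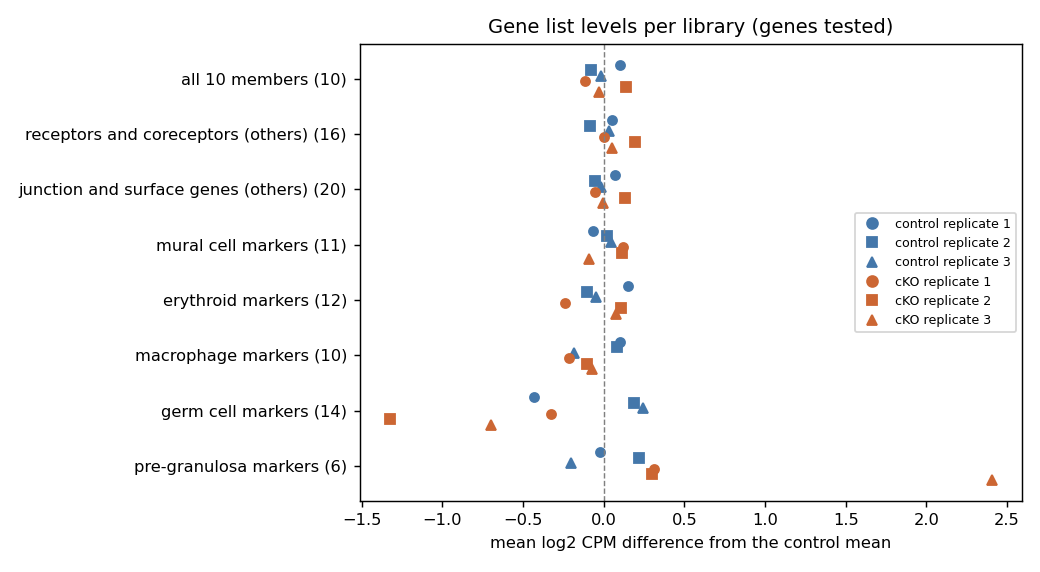
Mean log2 CPM difference from the control mean over the tested genes of each list, in each library (control blue, cKO orange, replicate by symbol, number of genes in brackets). The 3 endothelial lists plotted (members, receptors, junction and surface genes) stay between -0.11 and 0.19, while germ cell markers reach -1.33 in cKO replicate 2 and pre-granulosa markers 2.41 in cKO replicate 3.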

How the data were processed

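RNA-seq counts of 3 control and 3 cKO testis samples were used. According to the study's methods and labels, the authors prepared stranded mRNA libraries, mapped the reads with STAR (2.5) to mm10 and assigned them, strand-specifically, to RefSeq genes by featureCounts (Subread 1.5.0-p1); the deposited values are raw counts. Groups and replicate numbers came from the sample titles. Genes were filtered with filterByExpr (minimum count 10), scaled by TMM and tested with the quasi-likelihood F-test of edgeR (4.0.16, R 4.3.3) without covariates, with Benjamini-Hochberg adjustment over 15577 genes (FDR; called below 0.05). CPM used TMM-scaled totals, and log2 CPM a prior count of 2. TPM used exon lengths of GENCODE vM21 (same build), matched for 23662 genes with 96.3% of counts. The SE of an edgeR estimate was derived from its log2 fold change and F statistic. The 95% intervals were built from this SE and the t distribution, and are approximate.

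Alternatives were DESeq2 (1.42.0, the tool of the study), limma-voom (limma 3.58.1), RLE size factors, other filters, a replicate block, thinned libraries and leaving out each sample. The tests were checked on simulated data with changes far larger than those estimated for the members, so changes as small as theirs were not covered. The members and gene lists were chosen with earlier results of these data known. The text names the members, Ppp1r3c, 5 ligands, each list's gene of lowest p, genes called in a list, Xist, Foxl2, Fst and the 5 genes most like the members; others are named as chosen after their values were seen. No library duplicated another of its own group, and libraries of different groups were not compared in this way.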

Additional observations from a re-analysis of the deposited data

How the results depend on the processing

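None of the 10 members, and none of the ligands, was called under any of the 13 alternatives. The members' median log2 fold change lay between -0.0849 and 0.0772 when single samples were left out. The number of members with an unadjusted p below 0.05 was 1 throughout, except without cKO replicate 1, where it was 3 (Sox18, Kdr and Pecam1). Pecam1 (-0.21 to -0.166), Sox18 (0.0605 to 0.266) and Kdr (0.0541 to 0.157) kept their sign when single samples were left out. The other 7 lay near 0 and changed sign: Sox7 (-0.113 to 0.0698), Sox17 (-0.134 to 0.0711), Flt1 (-0.0712 to 0.086), Tek (-0.0846 to 0.0859), Tie1 (-0.123 to 0.0907), Cdh5 (-0.112 to 0.0531) and Emcn (-0.0441 to 0.0392). Sign also changed with limma-voom for Sox7 (0.0176), Tie1 (0.00464) and Emcn (0.00451), with DESeq2 for Emcn (0.000159), and in thinned libraries for Tie1 (0.0248), Cdh5 (0.00136) and Emcn (0.00409). The cause was not tested. Vessel genes outside the members numbered 0 called, or 1 (Etv2) without control replicate 2, and the range over left-out samples was 0 to 1. Over all genes edgeR called 6, DESeq2 111, limma-voom 7 and the replicate block 3. With the replicate number as a block 0 members were called. Deviations of same-numbered samples correlated at -0.203, -0.266 and -0.13. With 1 value per replicate number, from 6 libraries, these correlations cannot decide whether such pools had a litter or a batch in common. Pairing by replicate number was therefore neither shown nor excluded. For the members other than Pecam1, the 95% intervals include 0 and run from -10.6% to 11.2% for Emcn, and up to 33.7% above control for Sox18, so changes within each gene's own interval remain possible.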

Other observations

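Etv2, an early factor of the endothelial lineage chosen after its values were seen, was nearly undetected in some libraries and not in others. It had 2, 177 and 6 counts in control replicates 1 to 3 and 128, 81 and 137 counts in cKO replicates 1 to 3, or 0.123, 4.01 and 0.146 CPM against 3.19, 2.25 and 4.14 CPM. Control replicate 2 lay among the cKO libraries, and edgeR estimated 1.02 on the log2 scale (SE 0.863, FDR 0.675). Rgs5, a pericyte gene chosen in the same way, was at 6.46, 16.4 and 7.73 CPM in control and 20.3, 14.0 and 20.9 CPM in cKO libraries (log2 fold change 0.81, SE 0.304, edgeR p 0.0245, FDR 0.389). Its unadjusted edgeR p was not below 0.05 when control replicate 1 or 3, or cKO replicate 1 or 3, was left out. DESeq2 gave Rgs5 an unadjusted p of 0.0583. In both genes control replicates 1 and 3 were the lowest of the 6 libraries. The members did not follow this order.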
